A study of Mus musculus with 182 samples.

Results

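The replication-dependent histone genes were described here across single germinal centre B cells of the mouse spleen. Every row of the deposited table whose symbol began with Hist1h, Hist2h, Hist3h or Hist4h was taken, which gave 65 genes of 17034 gene symbols. They comprised 5 H1, 18 H2a, 18 H2b, 12 H3 and 12 H4 genes, spelled by type as in the symbols. The rule used names alone and no measured value. All 182 cells formed a single group with no comparison group. They came from C57BL/6 mice on day 13 after intraperitoneal immunization with the hapten carrier NP(23)-KLH (100 µg), given with 50% alum and 1 µg LPS. Spleen B cells had been sorted as B220+, Fas high and GL7 high, with NP binding named in the sample labels, and were captured and amplified on the Fluidigm C1 system. The labels name no animal, so the cells were treated as 1 biological sample, no p-value was computed, and each relation between genes is a description across cells.

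Core histones H2A, H2B, H3 and H4 form the protein spool around which DNA is wrapped, and the linker histone H1 binds where DNA enters and leaves that spool. Dividing cells need a full new set with each round of DNA replication, and most of these proteins come from clustered, mostly intronless genes that are transcribed mainly in S phase. Their main mRNAs are unusual in ending with a short stem-loop, bound by the stem-loop binding protein Slbp, in place of a poly(A) tail. Germinal centre B cells are among the fastest dividing cells of the adult mouse.

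The stem-loop was present in the annotated 3′ end of 43 of the 64 protein-coding members (GENCODE M21, GRCm38/mm10). For several others, as Hist1h1b and Hist1h2ak, the annotation ends at the stop codon. Hist1h2bc and Hist1h2be, annotated with 2 exons, were not searched. A gene not counted here may thus still carry the element. The stem-loop is shown for 8 members of all 5 types that were found in at least 10% of cells. The chemistry of the libraries (SMARTer) primes on poly(A), and this element stands where that tail would be. Capitals mark the 16 bases of the stem-loop, and 4 flanking bases are given on each side, 5′ to 3′ along the mRNA.
Hist1h1e, chr13:23621778-23621801, minus strand: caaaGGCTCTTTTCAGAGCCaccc
Hist1h1c, chr13:23739508-23739531, plus strand: aaaaGGCTCTTTTCAGAGCCacca
Hist1h2ae, chr13:23570664-23570687, minus strand: caaaGGCTCTTTTCAGAGCCattc
Hist1h2ac, chr13:23683473-23683496, minus strand: caaaGGCTCTTTTCAGAGCCccca
Hist1h2bm, chr13:21722502-21722525, plus strand: caaaGGCTCTTTTCAGAGCCacta
Hist1h3e, chr13:23561899-23561922, minus strand: aaacGGCTCTTTTAAGAGCCacct
Hist1h4d, chr13:23581946-23581969, plus strand: caaaGGCCCTTTTCAGGGCCacta
Hist1h4c, chr13:23698085-23698108, minus strand: aaaaGGCCCTTTTCAGGGCCaccc

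The same 16 bases, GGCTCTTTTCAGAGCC, stood in 3 H1, 10 H2a, 7 H2b and 5 H3 genes. None of the 11 H4 genes with a stem-loop held that form, and 6 of them held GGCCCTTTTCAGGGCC. The annotation of 17 of the 43 genes ran 200 bases or more beyond the stem-loop, so a longer transcript is annotated for them. These 17 genes were found in a median of 12.1% of cells (0% to 55.5%). The other 26 genes, whose annotation ended closer to the stem-loop, were found in a median of 5.77% of cells (0.549% to 30.2%). Both ranges overlapped, the distance of 200 bases was chosen after values had been seen, and the part of transcript ends in detection was not tested.

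The 250 bases before the annotated start are shown for 1 gene of each type (RefSeq, GRCm38.p6). It is the member found in most cells whose window touched no other of the 65 genes. The Hist1h2af window opens with letters that, read from the other strand, match the coding start of H2b genes. An H2b gene outside the 65 may thus begin there. Capitals mark the octamer ATTTGCAT, known as a binding site of Oct factors, the TATA box letters TATAAA, and CCAAT, each searched on both strands so that ATGCAAAT, TTTATA and ATTGG are the same motifs read from the other strand. No motif overlaps another in these windows.
Hist1h1e, chr13:23622559-23622808, minus strand: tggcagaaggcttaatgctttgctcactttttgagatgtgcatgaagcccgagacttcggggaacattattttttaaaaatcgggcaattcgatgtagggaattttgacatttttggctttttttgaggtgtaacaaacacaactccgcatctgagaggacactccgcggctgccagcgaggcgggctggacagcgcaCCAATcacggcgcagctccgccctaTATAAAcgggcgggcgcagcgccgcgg
Hist1h2af, chr13:23533625-23533874, plus strand: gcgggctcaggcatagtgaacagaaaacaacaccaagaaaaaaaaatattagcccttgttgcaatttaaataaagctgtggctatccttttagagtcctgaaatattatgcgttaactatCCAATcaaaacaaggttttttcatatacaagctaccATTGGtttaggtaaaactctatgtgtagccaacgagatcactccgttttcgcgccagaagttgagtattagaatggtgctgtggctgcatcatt
Hist2h2bb, chr3:96269450-96269699, plus strand: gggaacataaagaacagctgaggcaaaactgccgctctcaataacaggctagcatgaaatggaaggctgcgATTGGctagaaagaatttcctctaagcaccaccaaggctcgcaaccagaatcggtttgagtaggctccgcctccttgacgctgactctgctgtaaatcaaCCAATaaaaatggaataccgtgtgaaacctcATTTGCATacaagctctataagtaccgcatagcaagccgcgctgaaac
Hist1h3e, chr13:23562386-23562635, minus strand: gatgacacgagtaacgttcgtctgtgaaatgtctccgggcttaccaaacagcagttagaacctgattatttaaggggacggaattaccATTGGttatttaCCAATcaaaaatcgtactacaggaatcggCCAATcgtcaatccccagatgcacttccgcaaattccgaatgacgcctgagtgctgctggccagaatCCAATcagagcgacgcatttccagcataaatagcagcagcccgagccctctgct
Hist1h4d, chr13:23581318-23581567, plus strand: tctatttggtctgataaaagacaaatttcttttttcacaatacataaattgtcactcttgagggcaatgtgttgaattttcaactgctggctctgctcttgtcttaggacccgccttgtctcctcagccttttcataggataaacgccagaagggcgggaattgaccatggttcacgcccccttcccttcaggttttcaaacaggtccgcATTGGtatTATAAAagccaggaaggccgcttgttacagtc

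A RefSeq promoter window, from 250 bases before to 50 bases after the start, was matched to 58 of the 65 genes, with 59 windows in all because Hist1h2be has 2 annotated starts. The octamer stood in 13 of these 59 windows (22.0%), against 1.74% of all 32851 promoter windows. All 13 were windows of H2a (7 of 17) or H2b (6 of 16) genes, and some of these genes lie head to head and share the stretch between them. TATAAA stood in 33 of 59 histone windows (55.9%), against 13.6% of all windows. CCAAT stood in 51 of 59 (86.4%), against 37.4% of all windows, and the H4 genes had it in 3 of 11. A match is only a run of letters and shows no binding.

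By position, 51 members lie in the Hist1 cluster on chromosome 13 (chr13:21715763-23934851, GRCm38), 10 in the Hist2 cluster on chromosome 3, 3 on chromosome 11 and 1 on chromosome 6. The Hist1 cluster had at least 1 gene detected in 169 cells and the Hist2 cluster in 80 cells. The chromosome 11 genes were found in 43 cells, 42 of which had Hist3h2a, and Hist4h4 on chromosome 6 was found in 4 cells.

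Some properties of the values set limits. The table holds a normalized signal, not on a log scale, with its starting unit and sequencing depth not given in the sources used here, so levels were not ranked between genes, and a share of summed signal below holds only in that unit. The columns, whose numbers name the cells, fell into 2 sets by their values, cells 1 to 96 (96 cells) and cells 97 to 182 (86 cells), and what the sets stand for is not given. A cell without a gene stands at a low value of that gene that differs between the sets, so pooled rank correlations carry the set difference. Values within both sets are therefore given in brackets after most pooled ones, set 1 before set 2. Values with everything under 1 set to 0 are given for single genes, a setting chosen after seeing the data. It was applied over all 182 cells only, so values within the sets are without it throughout. The B cell markers Cd79a, Cd79b, Ms4a1 and Cd74 were found in 91.8% to 98.9% of cells and 7 germinal centre markers in 34.1% to 75.8%. Markers of T, myeloid, NK, plasma and erythroid cells were found in 0% to 8.24% of cells, with Cd3d at 0, and the proliferation genes Mki67 and Top2a in 83.5% and 84.1%.

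Histone mRNA was found in nearly every cell, and every member except Hist1h1e in fewer than 50% of cells. A value of 1 or more in a cell counted as detection. Of the 65 members, 64 were detected in at least 1 cell, against 88.6% of all gene symbols, and the exception was the H3 gene Hist2h3c1. In 26 members the share reached at least 10% of cells, as it did in 31.8% of all gene symbols. Only Hist1h1e was found in over 50% of cells, a share reached by 3.79% of all gene symbols. The 26 genes, called scored below, comprised all 5 H1 genes, 9 H2a, 8 H2b, 1 H3 and 3 H4 genes.

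**Figure D1:**
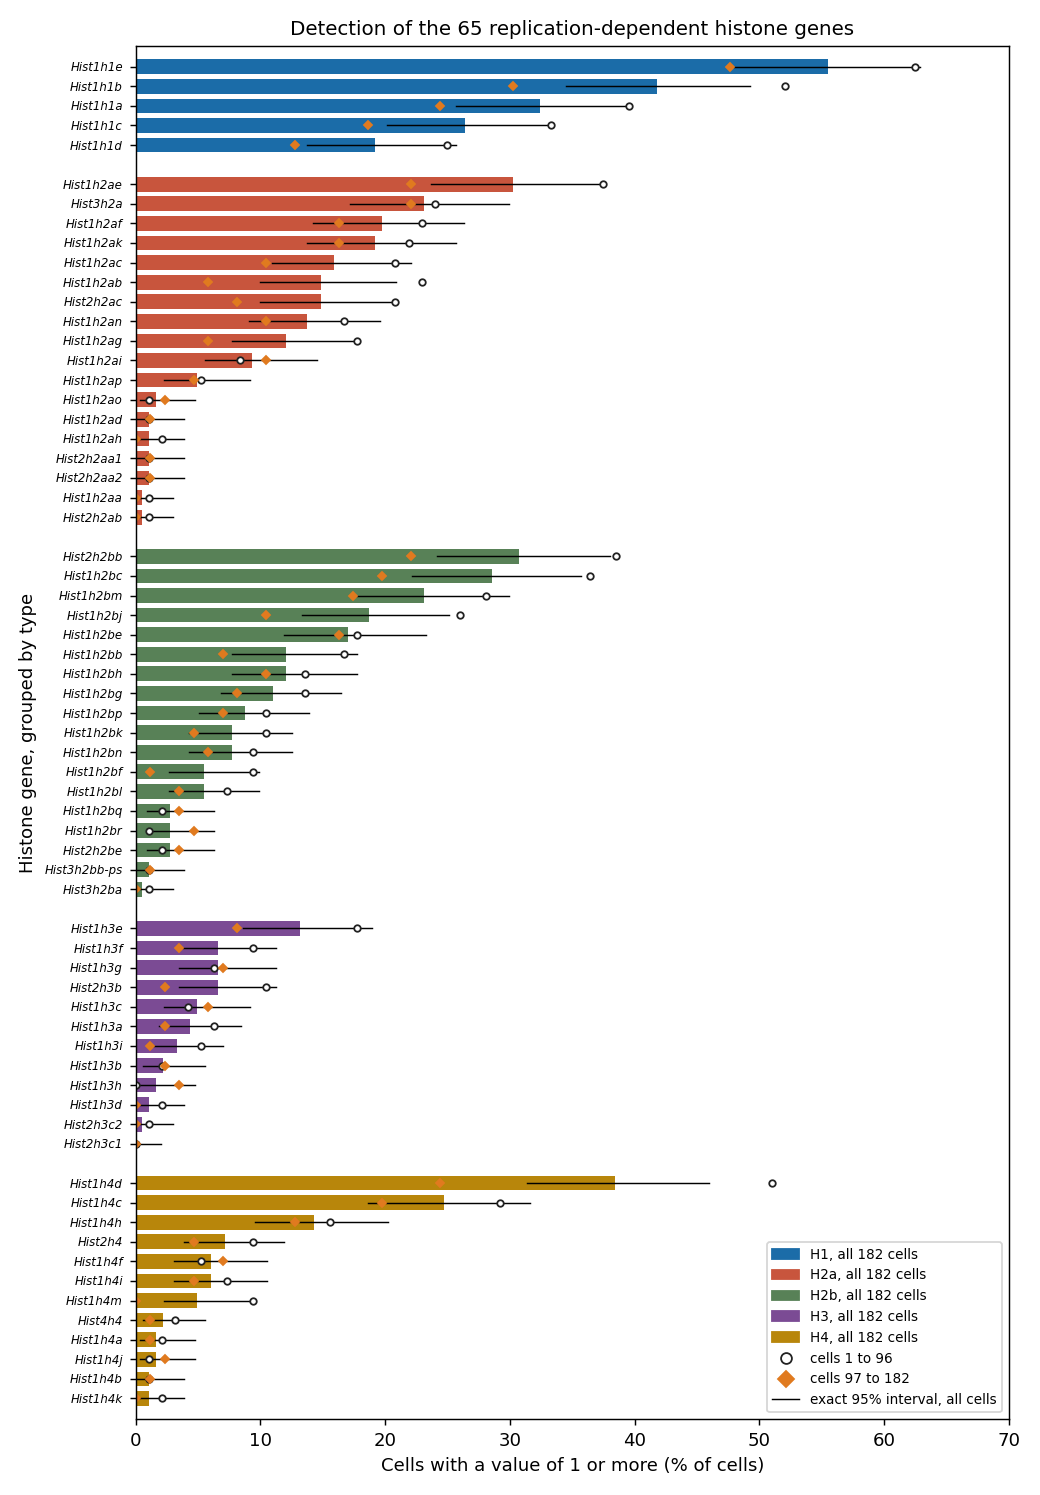
Share of cells with a value of 1 or more (x axis, % of cells) for each of the 65 histone genes (y axis, by type, highest share on top). Bars give all 182 cells with exact 95% intervals as lines, open circles cells 1 to 96 and filled diamonds cells 97 to 182; Hist1h1e is highest at 55.5% and most H3 genes lie under 10%.

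The H1 genes were the most widely detected type, with at least 1 of the 5 found in 129 cells (70.9%, exact 95% interval 63.7% to 77.4%, which covers counting error over cells only). Hist1h1e, a linker histone gene on chromosome 13 (chr13:23620629-23622558, minus strand), was found in 101 cells, 60 in set 1 and 41 in set 2. Its values in those cells ran from 2.03 to 9125 with a median of 341, and its median over all cells of a set was 18.6 in set 1 and 0.42 in set 2. Cells with high values of Hist1h1e were present in both sets, up to 8367 in set 1 and 9125 in set 2.

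Hist1h1b, another linker histone gene, was found in 76 cells (41.8%), with values of 1.66 to 6105 and a median of 162 where detected. Hist1h1a was found in 59 cells (32.4%; 1.13 to 4390, median 164). Hist1h1c was found in 48 cells (26.4%; 1.04 to 15510, median 68.7). Hist1h1d was found in 35 cells (19.2%; 1.25 to 5737, median 39.5). All 5 were found in a larger share of set 1 than of set 2, as in 52.1% and 30.2% of cells for Hist1h1b. Over all genes, the median number detected per cell was also larger in set 1, 1904 against 1690. How many of all genes differ in this direction was not counted, and the cause of the set difference was not tested.

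Among the H2a genes, which encode a core histone that pairs with H2B, at least 1 of 18 was found in 103 cells (56.6%). The widest was Hist1h2ae, in 55 cells (30.2%), with values of 1.74 to 12460 and a median of 155 where detected. Hist3h2a on chromosome 11 was found in 42 cells (23.1%), with a median of 9.82 where detected and a highest value of 1934. At a stricter value of 5 or more its share dropped to 15.4%. Hist1h2af and Hist1h2ak followed in 36 and 35 cells, and the remaining scored H2a genes, Hist1h2ac, Hist1h2ab, Hist2h2ac, Hist1h2an and Hist1h2ag, in 22 to 29 cells. Hist1h2ab, found in 27 cells, reached 25240 in cell 176.

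At least 1 of the 18 H2b genes was found in 124 cells (68.1%). Hist2h2bb was found in 56 cells (30.8%; 1.56 to 6819, median 114 where detected). All of its annotated 75-base stretches also lie in Gm20628, a gene annotated on the opposite strand, Gm42743 overlaps it on the same strand, and strand use in the authors' counting is not stated, so its reads cannot be told apart from theirs. Hist1h2bc was found in 52 cells (28.6%; 2.19 to 3161, median 412), Hist1h2bm in 42 cells and Hist1h2bj in 34. Hist1h2be was found in 31 cells; its annotated span contains part of Hist1h1e on the same strand. Hist1h2bb and Hist1h2bh were found in 22 cells each and Hist1h2bg in 20.

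The H3 genes were found least often, with at least 1 of 12 in 58 cells (31.9%, interval 25.2% to 39.2%). Hist1h3e was the only scored member, in 24 cells (13.2%; 2.39 to 4231, median 150). Hist1h3f, Hist1h3g and Hist2h3b were each found in 12 cells. The H3.3 genes H3f3a and H3f3b, which supply an H3 variant outside replication, were found in 103 cells (56.6%) and 160 cells (87.9%). The libraries prime on poly(A), and the part of transcript ends in this difference was not tested.

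At least 1 of 12 H4 genes was found in 108 cells (59.3%). Hist1h4d alone was found in 70 cells (38.5%), with values of 1.03 to 23510 and a median of 218, and in 51.0% of set 1 against 24.4% of set 2. Hist1h4c was found in 45 cells (24.7%; 1.31 to 16220, median 142) and Hist1h4h in 26 cells (14.3%). The other 9 H4 genes were found in 2 to 13 cells. Hist2h4, in 13 cells, held a value of 24760 in cell 171.

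Copies of a type are close in sequence, which bears on how reads are shared out. Of the 75-base stretches of a gene, the length of a read, the median share that also occurs in another gene was 1.47% for H1 genes, 71.5% for H2a, 42.2% for H2b, 59.0% for H3 and 23.5% for H4. Values of single H2a, H2b and H3 genes are thus uncertain as to which copy they came from, and Hist1h2af (86.8%) and Hist1h2an (84.6%) share most of theirs. Hist1h1a and Hist1h1b shared none and Hist1h4d 3.67%. Hist1h1e shared 28.4%, all with other histone genes and the most with Hist1h2be, an H2b gene whose annotated span overlaps it.

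The number of histone genes per cell was spread widely. Cells had a median of 4 members detected and a range of 0 to 29, with a median of 5 in set 1 and 3 in set 2. At least 1 member was found in 173 cells (95.1%, interval 90.8% to 97.7%), and 9 cells had none. There were 84 cells with 1 to 4 members, 39 with 5 to 9 and 50 with 10 or more, the bounds having been chosen after seeing the data. Of those 50 cells, 33 were in set 1 and 17 in set 2. All 5 types were found in 36 cells (19.8%), 27 in set 1 and 9 in set 2.

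**Figure D2:**
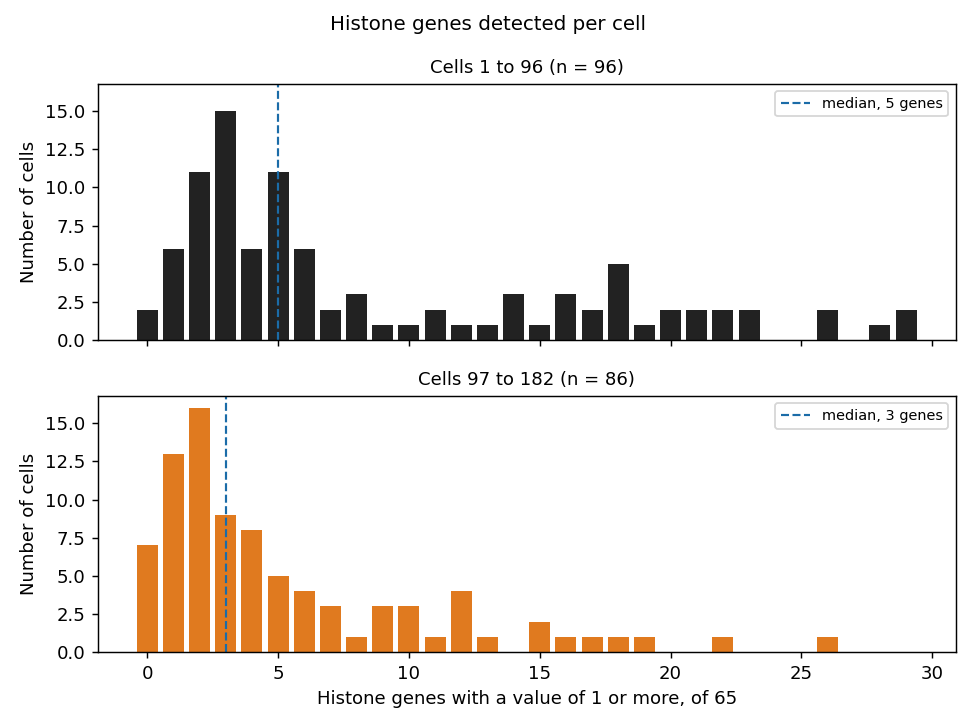
Number of cells (y axis) by how many of the 65 histone genes had a value of 1 or more (x axis), for cells 1 to 96 (top) and cells 97 to 182 (bottom), with dashed lines at the medians of 5 and 3 genes. In both sets most cells lie at the low end, with a tail that reaches 29 genes in set 1 and 26 in set 2.

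The largest counts were 29 members in cells 54 and 96 and 28 in cell 88, all 5 types in each. Histone genes took a median of 0.278% of the summed signal of a cell and 1% or more in 53 cells. The highest share was 16.4% in cell 171, which had 26 members detected. The number of genes above their own low value was the only stand-in for depth, and it ran from 980 to 5149 per cell. Its Spearman's rho with the number of histone genes detected was 0.28 over all cells, 0.14 within set 1 and 0.27 within set 2. With this number and the column set taken out of the log2 values by linear regression, the mean rho between histone genes of a type was 0.33 and between types 0.27, and the rho of the histone score with the S phase and mitosis pairs described below was 0.35 and 0.39.

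Histone genes tended to be found in the same cells. Over the 325 pairs of scored genes the mean Spearman's rho of log2(value + 1) was 0.28 over 182 cells, 0.28 within set 1 and 0.17 within set 2. The same mean over all pairs of genes found in at least 10% of cells was 0.04, 0.01 and 0.02. With values under 1 set to 0 the mean over histone pairs was 0.24, against 0.004 over all pairs of genes found in at least 10% of cells. Of the 325 histone pairs, 318 were above 0 and 195 at 0.2 or more, counts that were not made over all pairs. Points share the library, its depth and the normalization, and close copies may share reads.

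The mean rho over the 77 pairs of the same type was 0.28 over all cells, and over the 248 pairs of different types it was 0.28. Within set 1 these means were 0.33 and 0.27, within set 2 they were 0.24 and 0.15, and with values under 1 set to 0 they were 0.30 and 0.22. The highest mean of a type was that of the H1 genes, 0.45 over their 10 pairs, 0.46 within set 1 and 0.41 within set 2. The H2a genes had 0.25 (0.37 and 0.20), the H2b genes 0.27 (0.25 and 0.25) and the H4 genes, with 3 pairs, 0.25 (0.16 and 0.22). Hist1h1a and Hist1h1b had the highest rho of all pairs with values under 1 set to 0, at 0.63, and were found together in 48 cells. Hist1h1a with Hist1h2af (0.58; 31 cells) and with Hist1h1e (0.57; 52 cells) came next.

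**Figure D3:**
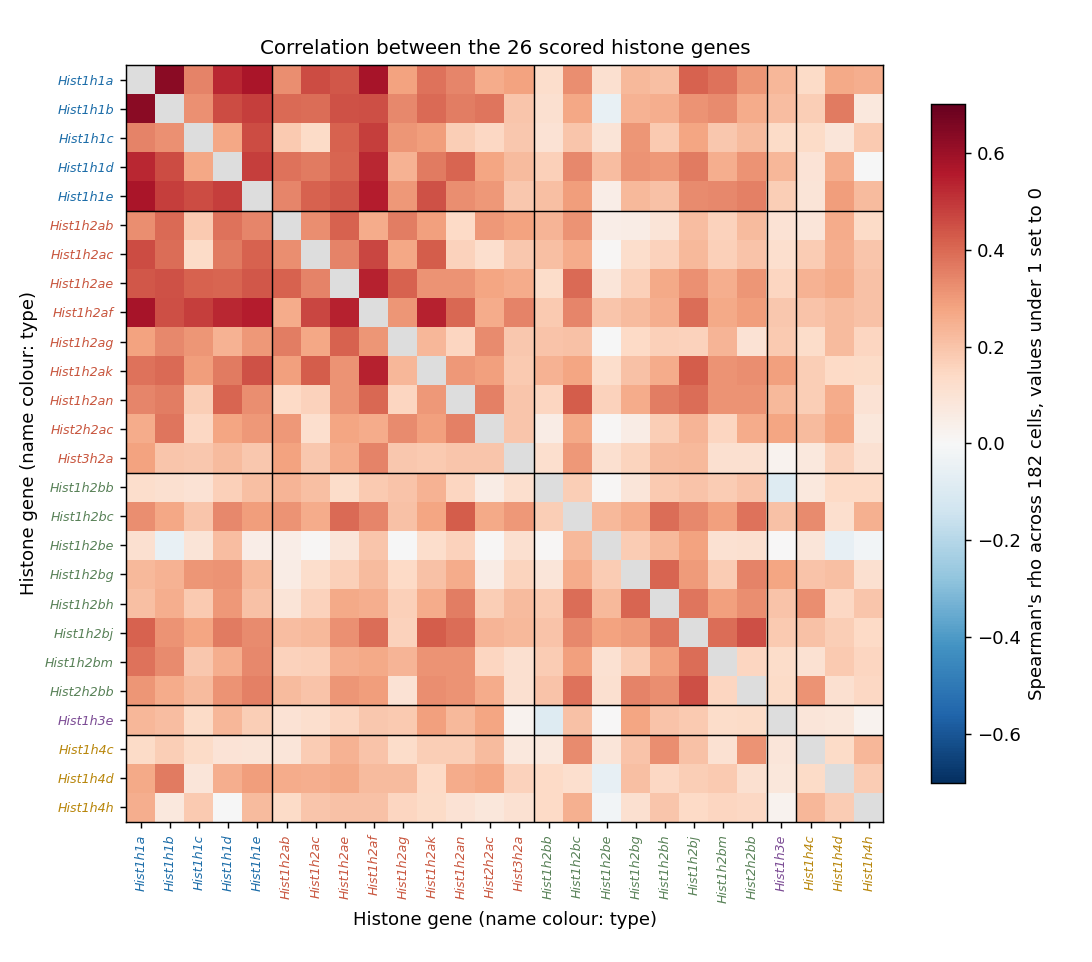
Spearman's rho across 182 cells, values under 1 set to 0 (colour, from -0.7 to 0.7), for each pair of the 26 scored histone genes on both axes, ordered by type with lines between types. The H1 block in the upper left is the most uniformly high, Hist1h2af has high values with every H1 gene, and the row of Hist1h2be runs from -0.06 to 0.28.

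Between types, the H1 and H2a scores had the highest rho, 0.60 over all cells (0.65 in set 1 and 0.57 in set 2). A score is the mean over a type's scored genes after each is set to mean 0 and unit spread. H1 with H2b gave 0.45 (0.63 and 0.21) and H2a with H2b, the partners of a dimer, gave 0.50 (0.60 and 0.40). Hist1h3e had 0.12 with H1 (0.30 and 0.16) and 0.03 with H4 (0.13 and -0.13), although H3 and H4 are partners in the core. That value rests on 1 H3 gene found in 24 cells.

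Each gene was set against the mean of the other 25, and values within the sets are given without any value set to 0. With values under 1 set to 0, the rho was highest for Hist1h1a (0.61; 0.60 and 0.62 within the sets), Hist1h2af (0.60; 0.66 and 0.54) and Hist1h1e (0.59; 0.58 and 0.53). It was lowest for Hist1h2be (0.19; 0.19 and 0.20), Hist1h4h (0.20; 0.25 and 0.11) and Hist1h2bb (0.21; 0.21 and 0.21). Hist1h4d, found in the third most cells, had 0.27 (0.31 and 0.21). All 26 values were above 0, a count that was not made over all genes. Of all genes ranked against the score of the 26, 3.47% reached 0.2 with values under 1 set to 0.

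Close pairs on the chromosome had values like those of other pairs. The 17 pairs of scored genes within 10 kb had a mean rho of 0.21, and the other 308 pairs 0.24, with values under 1 set to 0. The 5 head-to-head pairs among the 17 ran from 0.16 to 0.31. Hist1h2ac and Hist1h2bc, head to head with 251 bases between them, had 0.26 and were found together in 16 cells. Within the sets, without any value set to 0, they had 0.29 and 0.12. Hist1h1e and Hist1h2be, which overlap, had 0.05.

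Mcm5, a subunit of the helicase that opens DNA at replication forks, was found in 83 cells and Rrm2, the regulated subunit of the enzyme that makes deoxynucleotides, in 95. Cenpe, a kinetochore motor of mitosis, was found in 112 cells and Nusap1, a spindle protein, in 88. Each pair was averaged into a score in the same way, and both scores were related to each other at a rho of 0.25 (0.32 and 0.21), so they are not independent of each other.

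The histone score over all 26 genes was related to both phases. With the S phase pair its rho was 0.37 over all cells, 0.37 in set 1 and 0.39 in set 2. With the mitosis pair it was 0.37 over all cells, 0.50 in set 1 and 0.23 in set 2. With values under 1 set to 0 these were 0.38 and 0.36. Pearson's r over all cells was 0.24 with the S phase pair and 0.46 with the mitosis pair. The longer lists gave 0.32 for 21 scored S phase genes (0.34 and 0.30) and 0.41 for 20 mitosis genes (0.51 and 0.27).

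**Figure D4:**
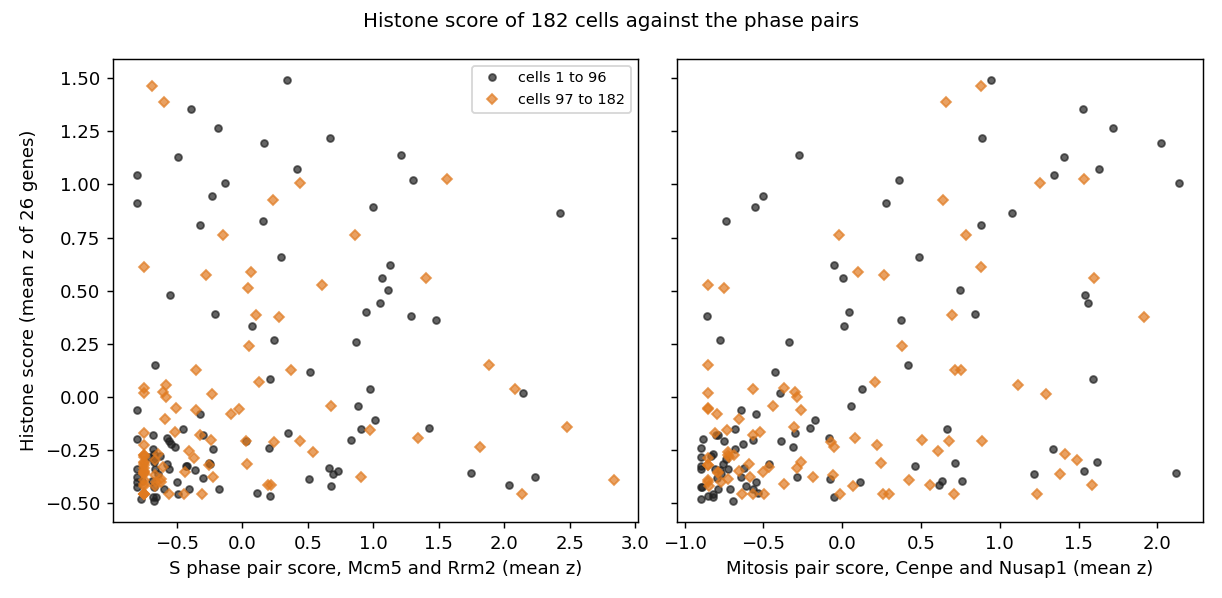
Histone score (y axis, mean z-score of 26 genes) of each of 182 cells against the S phase pair score (left) and the mitosis pair score (right), circles for cells 1 to 96 and diamonds for cells 97 to 182. Cells with low phase scores crowd near the bottom, while cells of high histone score spread over most of the x axis on the left, where rho is 0.37.

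The 3 cells with most histone genes had different scores of these pairs. Cell 54 had an S phase pair score of 1.21 and a mitosis pair score of -0.27, cell 88 had 1.30 and 0.36, and cell 96 had 0.34 and 0.94.

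By type, the rho with the S phase pair was highest for H1 at 0.42 (0.43 in set 1 and 0.39 in set 2), followed by H4 at 0.35 (0.37 and 0.32) and H2a at 0.27 (0.30 and 0.30). It was 0.12 for H2b (0.21 and 0.02) and -0.02 for the H3 gene Hist1h3e (0.12 and -0.05). With the mitosis pair the values were 0.39 for H1 (0.51 and 0.23), 0.36 for H2a (0.43 and 0.27), 0.34 for H4 (0.40 and 0.21), 0.23 for H2b (0.36 and 0.10) and 0.12 for Hist1h3e (0.17 and 0.04). In set 1 all 5 types had a higher rho with the mitosis pair than with the S phase pair. In set 2 this held for H2b and Hist1h3e, while H1, H2a and H4 had the higher rho with the S phase pair. The scores average 5 H1, 9 H2a, 8 H2b, 1 H3 and 3 H4 genes. The part of these numbers in the order of types was not tested.

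Single histone genes were set against the same scores. Of the 26, 6 had a rho of 0.2 or more with the S phase pair over all cells, against 2.98% of all genes tested, 13 within set 1 (7.14%), 10 within set 2 (8.25%) and 13 with values under 1 set to 0 (3.51%). With the mitosis pair there were 16 over all cells (3.64%), 19 within set 1 (9.15%), 8 within set 2 (5.94%) and 16 with values under 1 set to 0 (2.96%). The median over the 26 genes with values under 1 set to 0 was 0.20 for the S phase pair and 0.23 for the mitosis pair, and the medians over all genes tested were 0.003 and -0.003.

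Hist1h1b had the highest rho of the 26 with the S phase pair, 0.42 with values under 1 set to 0. Within set 1 and set 2, where no value was set to 0 in this paragraph, it had 0.39 and 0.50. Hist1h1a had 0.37 (0.37 and 0.38), Hist1h2af 0.35 (0.39 and 0.35) and Hist1h1e 0.33 (0.32 and 0.36). With the mitosis pair Hist1h2af was highest at 0.37 (0.40 and 0.38), followed by Hist1h2ae at 0.33 (0.49 and 0.22) and Hist1h1b at 0.33 (0.50 and 0.19). Hist1h4d had 0.19 with the S phase pair (0.20 and 0.19) and 0.31 with the mitosis pair (0.36 and 0.27). Hist1h2be had -0.01 and 0.09, and Hist1h2bb 0.00 and 0.10.

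**Figure D5:**
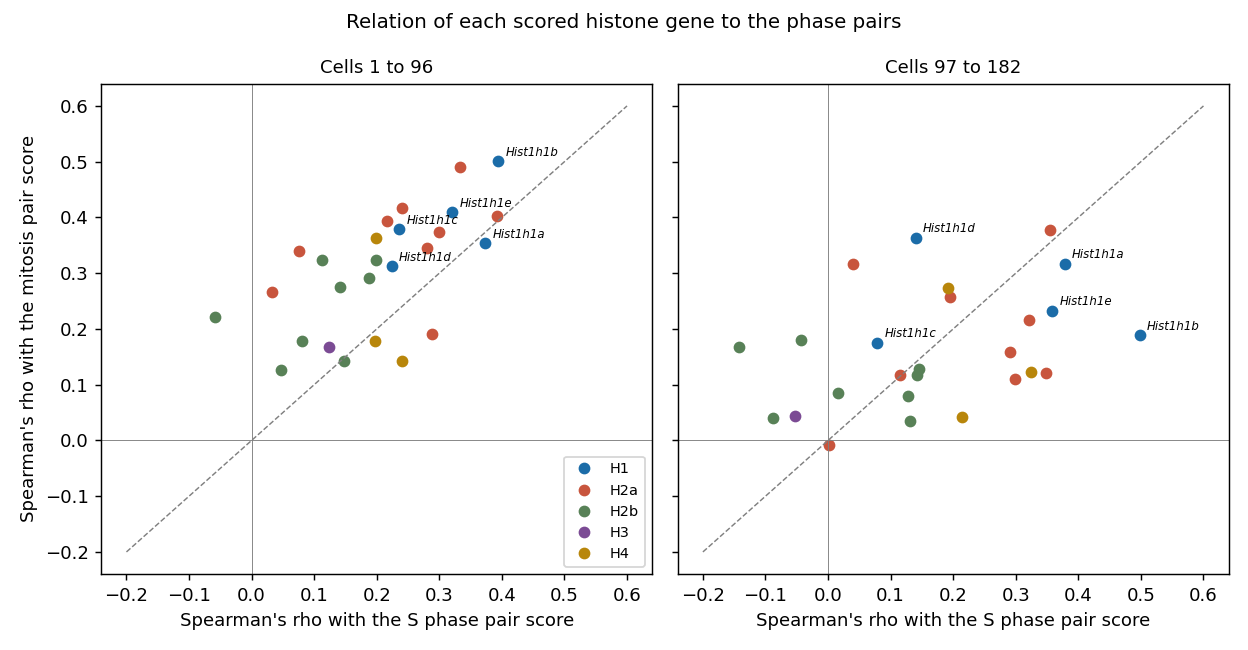
Spearman's rho of each of the 26 scored histone genes with the S phase pair score (x axis) and with the mitosis pair score (y axis), coloured by type, for cells 1 to 96 (left) and cells 97 to 182 (right). The dashed line marks equal values; most genes of set 1 lie above it, and in set 2 Hist1h1b lies far to the right at 0.50 and 0.19.

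The number of cells with a scored histone gene and Mcm5 was larger than the product of both shares gives for 24 of 26 genes, against 51.6% of all genes tested. For Rrm2 it was 25 of 26 (55.5%), for Cenpe 25 of 26 (48.5%) and for Nusap1 26 of 26 (51.4%). Hist1h1b and Mcm5 were found together in 49 cells, where the product of shares gives 34.7. Hist1h4d and Nusap1 were found together in 48 cells (33.9 from the product) and Hist1h4d and Mcm5 in 34 (31.9). Hist1h1e and Rrm2 were found together in 62 cells (52.7). All products pool both sets, which differ in detection of these genes, and none was taken within a set.

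The genes outside the family with the highest rho with the histone score, over all cells, were Top2a at 0.50 (0.57 in set 1 and 0.42 in set 2), Esco2 at 0.43 (0.49 and 0.38), Pola1 at 0.41 (0.44 and 0.36), Rpph1 at 0.40 (0.54 and 0.24) and Smc4 at 0.40 (0.45 and 0.32). The order changed with values under 1 set to 0, where Esco2 came first at 0.49, Top2a second at 0.49, Rpph1 at rank 4 with 0.41, Pola1 at rank 5 with 0.41 and Smc4 at rank 8 with 0.39. Top2a encodes the topoisomerase that untangles replicated DNA, Esco2 a cohesin acetyltransferase of S phase, Pola1 the catalytic subunit of the polymerase that starts new DNA strands, Rpph1 the RNA of RNase P and Smc4 a condensin subunit. Of all 5383 genes ranked, 2.6% reached 0.2, and 3.47% with values under 1 set to 0.

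The histone score was next set against genes that make, process and place histones. Of 12 scored genes of histone transcription, processing and decay, 2 had a rho of 0.2 or more over all cells, against 2.6% of all genes ranked. With values under 1 set to 0 there were 3, against 3.47%. Both shares apply to the lists that follow. Upf1, a helicase of histone mRNA decay, had 0.23 (0.21 and 0.24; 0.24 with values under 1 set to 0), and Cdk2, the S phase kinase, had 0.20 (0.15 and 0.28; 0.23). The third was Ccne1, a cyclin partner of Cdk2, at 0.17 (0.26 and 0.14; 0.26). Slbp itself was found in 48 cells (26.4%), with a rho of 0.09 (0.15 and -0.03; 0.03). Npat, the coactivator of histone genes, was found in 23 cells (12.6%), with a rho of 0.12 (0.17 and 0.05; 0.15). Cpsf3, the nuclease subunit that cuts histone transcripts, had -0.22 (-0.21 and -0.22; -0.18).

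Among 10 scored chaperones and assembly factors, 1 reached 0.2 in both settings, the large CAF-1 subunit Chaf1a, which helps place H3 and H4 on new DNA. Its rho was 0.37 (0.38 in set 1 and 0.44 in set 2), and 0.40 with values under 1 set to 0. Of 9 scored histone variant genes outside the 65 members, 2 reached 0.2 over all cells and 3 with values under 1 set to 0. H1fx, a linker variant, had 0.34 (0.45 and 0.31; 0.42), H2afx, the variant that is phosphorylated at DNA breaks, had 0.24 (0.33 and 0.07; 0.22), and H2afj, an H2A variant, had 0.14 (0.15 and 0.22; 0.23). H3f3a had -0.24 (-0.33 and -0.11; -0.23). By the same measure 5 of 21 S phase genes reached 0.2 over all cells and 4 with values under 1 set to 0, and for 20 mitosis genes these counts were 7 and 9, including the 2 genes of each pair. Of the germinal centre zone markers, Cxcr4, of the dark zone, had a rho of 0.09 with the histone score (0.15 and 0.00; 0.08), and Cd83, of the light zone, had 0.02 (-0.07 and 0.12; 0.04).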

How the data were processed

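Single germinal centre B cells of 1 group, 182 cells, were each measured with 1 RNA-seq library (75-base paired-end reads). Per the submitters' processing notes, TopHat2 2.0, Cufflinks 2.2, Cuffdiff (no version) and the mm10 build were used. The authors deposited a normalized signal per gene and cell, which was not on a log scale. With its starting unit, annotation, normalization and depth not given in the sources used here, no count model was applied. The members, lists and tests were chosen with earlier results of these data known. Scores averaged z-scores of log2(value + 1) over genes found at a value of 1 or more in at least 10% of cells, and Spearman's rho was taken across cells over all genes at that share. Intervals are exact Clopper-Pearson 95% intervals for counting error. The rho computation was tested on simulated data. Any histone gene could be named, as could the genes of the lists, the zone markers and the 5 genes with the highest rho with the histone score. Computation used Python 3.11.15, numpy 2.4.6, pandas 2.3.3 and scipy 1.17.1. Protein identity was not analysed here. Alternatives covered detection thresholds, pseudocounts, gene filters, column sets, a regression on set and genes above the floor, longer phase lists, Pearson's r and leaving out the cell of the highest summed value. A B cell marker of the lists is not reported here.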

Additional observations from a re-analysis of the deposited data

How the results depend on the processing

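Of 161 alternative values, 6 could not change by construction (mean rho between single genes under another pseudocount, and H1 scores built on the same genes). Of the other 155, 132 stayed within 0.1 of the main rho, within 1.5 times the main count or within the main interval, 23 moved further and no rho of 0.1 or more in size changed sign; the causes were not tested. At a value of 5 or more, 90.7% of cells had a histone gene and the rho of the number of histone genes with the number of genes above their floor was 0.15. In cells 1 to 96 the share was 97.9%, that rho 0.14, the rho of the histone score with the mitosis pair 0.50, of H1 0.51 and of H2b 0.36, the rho of H3 with the S phase pair 0.12 (-0.02 over all cells), and 13 genes reached a rho of 0.2 with the S phase pair. In cells 97 to 182 the mitosis pair gave 0.23 for the histone score, 0.23 for H1, 0.10 for H2b and 0.21 for H4, the mean rho between genes of different types was 0.15, and 10 and 8 genes reached 0.2 with the S phase and mitosis pairs. Pearson's r with the S phase pair was 0.24. With members found in at least 25% of cells the mean rho within types was 0.46, mostly over pairs of H1 genes. H4, then Hist1h4d alone, had 0.15 with the S phase pair. All 8 members at that share reached 0.2 with the mitosis pair, so this count fell only with the number of genes counted. With members found in at least 5% of cells H3 had 0.16 with the S phase pair and 0.28 with the mitosis pair. With values under 1 set to 0, 13 genes reached 0.2 with the S phase pair. No paired analysis was possible because there is 1 group. The depth is unknown and the libraries prime on poly(A), so a gene not found in a cell may have been missed.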
